A study of Mus musculus with 4 samples.

Results

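Myt1, Myt1l and St18 are the 3 genes of the Myt family of neuronal zinc finger factors, and Rest, Rcor1 and Rcor2 code for the repressor Rest and for its corepressors CoREST1 and CoREST2. These 6 genes were taken by name from a table of 22770 genes measured in the cortex of mouse embryos (embryonic day 16.5), and all 6 were among the 15399 genes that passed the filter on low values. The 2 wild-type libraries came from littermates, and the other 2 from embryos homozygous for Pax6 sey (small eye), an allele of the cortical progenitor factor Pax6. Both genotypes had the same mixed background of C57BL/6J, 129S6 and CD1, and no agent or transgene is named. Whether a library holds 1 embryo or a pool is not stated, so p-values measure only the spread between these libraries. Between the wild types that spread may be technical. The mutant libraries differed in sex by genes given further on, so they held different embryos. The 6 genes were chosen with the fold changes of this very comparison known. Their values are therefore given as a description, without p-values, and support nothing further.

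Myt factors bind DNA through clusters of CCHHC zinc fingers. Myt1l is a factor of postmitotic neurons that keeps non-neuronal genes silent, Myt1 is found in neurogenic progenitors, young neurons and cells of the oligodendrocyte lineage, and St18 is found in ventral forebrain, among other places. Rest works in the opposite sense: in progenitors and non-neuronal cells it holds neuronal genes silent by binding the RE1 element, and it recruits Rcor proteins, which carry the demethylase Kdm1a and the deacetylases Hdac1 and Hdac2. Rest is switched off as neurons form, while Rcor2 is a CoREST form of neural progenitors and developing brain.

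The kinship of the Myt genes is visible in their coding DNA. The stretches below are each 47 bases of zinc finger coding sequence from the GENCODE M21 transcript with the longest coding part. Those of Myt1 and St18 were taken around one of the longest runs that both share. That of Myt1l does not hold this run and is the stretch of its coding part most like that of Myt1. Both choices favour matching bases, in the counts below as well. Capitals mark the 33 bases that are the same in all 3 genes.
Myt1: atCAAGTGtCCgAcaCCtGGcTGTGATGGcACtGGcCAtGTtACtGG
St18: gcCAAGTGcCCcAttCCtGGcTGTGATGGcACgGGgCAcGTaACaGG
Myt1l: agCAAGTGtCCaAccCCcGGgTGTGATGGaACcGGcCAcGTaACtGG
Myt1 and St18 had the same base at 36 of the 47 positions, and Myt1 and Myt1l at 38. No run of identical bases between any pair of the 3 genes was longer than 17, and no 31-base stretch was shared by any pair. Among the Rcor genes the longest shared runs were 16 to 23 bases, again with 0 shared 31-base stretches. Exact sequence shared between these paralogs was thus short.

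Levels are given in FPKM, a fragment number scaled to exon length and library size, which divides by gene length and so lets genes be set side by side. Column totals were 579698 to 593256 FPKM, and 13682 to 13875 genes per library lay at 1 FPKM or more. FPKM does not keep the number of fragments, but the lowest values show what about 1 fragment was worth, from which the depth relative to wild-type library 1 was 0.785 for the second wild type, and 0.901 and 1.19 for mutants 1 and 2. By the same measure St18, the lowest of the 6 genes in wild types, rested on about 97 and 61 fragments there, and Rest on about 210 to 350 in any library. Mutant library 1 stood apart in Xist, which is expressed from the inactive X (350 FPKM against 0.0788 to 0.224 in the others). The Y chromosome gene Ddx3y was 0.0 FPKM there and 16.5 to 23.3 in the others. By these genes mutant library 1 was female and the others male, so sex was not balanced between the genotypes. Mutant library 1 also stood apart in meningeal markers, given with the other cell type markers further on. Pax6 itself measured 28.8 and 27.0 FPKM in wild type and 101 and 120 in mutant libraries (limma adjusted p = 0.00466, log2 fold change 1.96, SE 0.10). The sey allele leaves a transcript, so this level does not check the genotype.

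In the mutants the Myt family changed its makeup: St18 and Myt1 were higher in both mutant libraries than in both wild types, and Myt1l was lower. Rcor2 was lower in both mutants, Rcor1 differed little and Rest overlapped between genotypes. In the fit over all genes (limma on log2(FPKM + 0.5), adjusted p under 0.05 counted as a call), 2 of the 6 genes were called higher and 1 lower, where 3.48% of all tested genes were called, 2.02% higher and 1.46% lower. Since this contrast is the one the genes were chosen on, nothing is read from that count. The 3 calls rest on all 4 libraries: with any single library left out 0 of the 6 genes were called, and 0 were called without the filter on low values. Without the mean-variance trend 1 was called, St18.

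**Figure D1:**
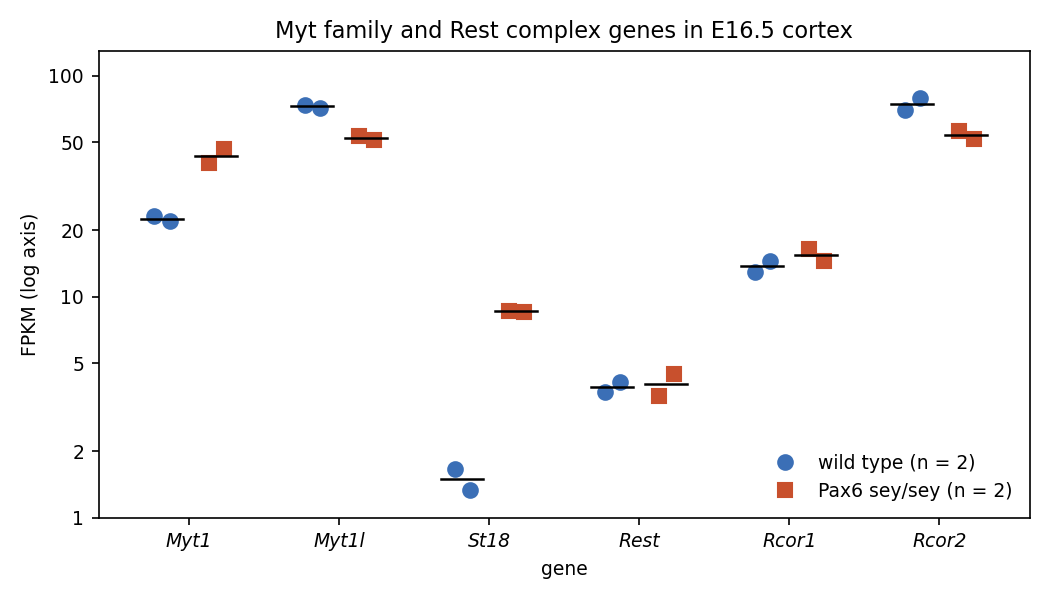
FPKM on a log axis of the 6 genes in each library, where circles stand for wild type, squares for Pax6 sey/sey and short black lines for the means of 2 libraries. St18 lies at 1.66 and 1.34 FPKM in wild types and at 8.65 and 8.55 in mutants, Myt1 is higher and Myt1l and Rcor2 are lower in both mutants, and the circles and squares of Rest overlap.

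St18 had the largest ratio between genotypes of the 6, from the lowest wild-type level. It was 1.66 and 1.34 FPKM in wild-type libraries, and 8.65 and 8.55 in mutant ones. The groups were far apart and the mutants lay close together, with a mean of 8.60 ± 0.0732 FPKM (SD, n = 2), 5.72 times that of the wild types, whose SD was 0.227 FPKM. On the log2(FPKM + 0.5) scale, which understates changes of low genes, the difference was 2.19 (SE 0.17). It was 2.45 with a pseudocount of 0.1 and 1.94 with a pseudocount of 1. St18 lies on chromosome 1 from 6487231 to 6860940 in GRCm38 (ENSMUSG00000033740), and no other annotated gene shares bases with its exons. It moved from the level below which 16.2% of tested genes lie in wild types to that below which 45.1% lie in mutants.

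Myt1 was 23.1 and 22.1 FPKM for wild type, against 40.2 and 46.7 for mutant libraries. Every mutant value was above every wild-type value, with means of 22.6 ± 0.749 and 43.5 ± 4.62 FPKM (SD, n = 2), a ratio of 1.92 and a log2 difference of 0.92 (SE 0.10). Leaving out 1 library moved that difference between 0.82 and 1.03. Myt1 (ENSMUSG00000010505) lies on chromosome 2 from 181763332 to 181827797, and its exons share no bases with another annotated gene.

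Myt1l was the highest of the family and went the other way. It was 74.1 and 71.4 FPKM in wild type and 53.6 and 51.4 in mutant libraries, with no overlap. The means were 72.7 ± 1.88 and 52.5 ± 1.55 FPKM (SD, n = 2), a ratio of 0.722 and a log2 difference of -0.47 (SE 0.06). Myt1l (ENSMUSG00000061911) lies on chromosome 12 from 29528384 to 29923213. Of its 14018 annotated exon bases, 633 are shared with Gm20208 on the other strand, and since strand use is not stated those reads cannot be told apart.

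Because the differences had opposite signs, the sum over the 3 genes moved little. The summed level was 98.9 and 94.8 FPKM in wild-type libraries, and 102 and 107 in mutant ones. Within that sum Myt1l made up 74.9% and 75.3% in the wild types and 52.3% and 48.2% in the mutants. The share of Myt1 went from 23.4% and 23.3% to 39.2% and 43.8%, and that of St18 from 1.68% and 1.42% to 8.44% and 8.01%. Put as a ratio of levels, Myt1l exceeded Myt1 by 3.20 and 3.23 times in the wild types and by 1.33 and 1.10 times in the mutants. St18 stood 44.5 and 53.2 times below Myt1l in the wild types and 6.20 and 6.02 times below it in the mutants. In bulk tissue, fewer cells of a type and less RNA per cell cannot be told apart, and this holds for every level given here.

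**Figure D2:**
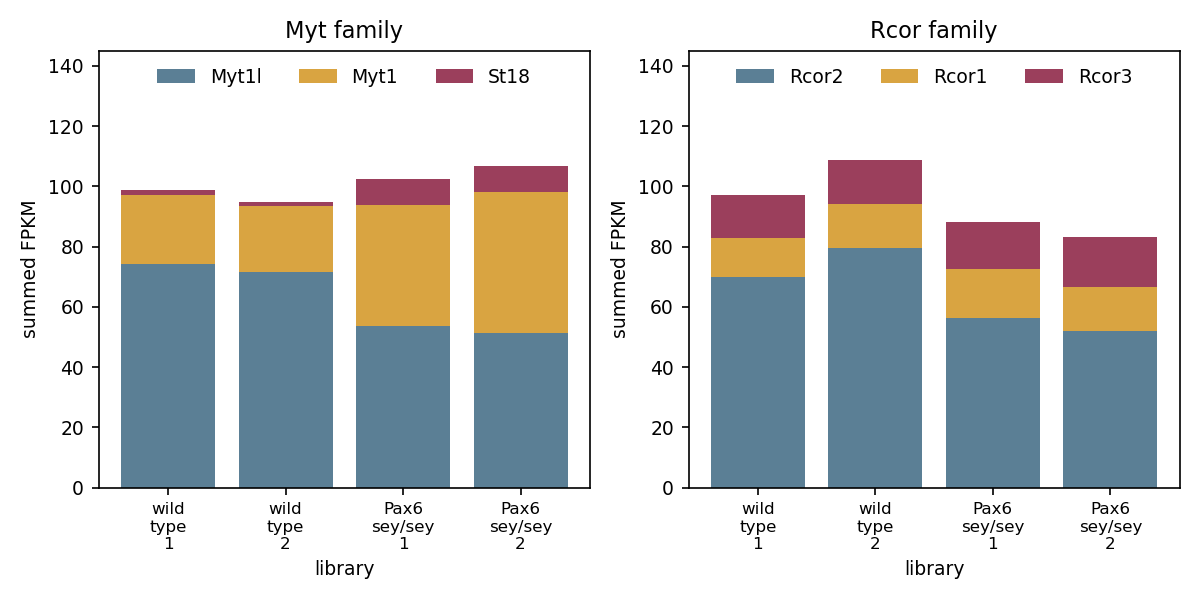
Summed FPKM of the Myt family (left) and of the Rcor family (right) in each of the 4 libraries, stacked by gene. The Myt sum is 94.8 to 107 FPKM in all libraries while the Myt1l share is 75.3% in wild-type library 2 and 48.2% in mutant library 2; Rcor2 is the largest part of the Rcor sum in every library.

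Rest was low, and its genotypes overlapped. It was 3.71 and 4.13 FPKM for wild type, against 3.56 and 4.49 for mutant libraries, so that the mutant values enclosed the wild-type ones. The log2 difference was 0.03 (SE 0.18), and it lay between -0.12 and 0.18 when 1 library was left out. This does not show that Rest was equal in both. Rest (ENSMUSG00000029249) lies on chromosome 5 from 77265491 to 77286432, with no exon bases shared with another gene.

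The corepressor genes were well above Rest. Rcor2 was 70.0 and 79.5 FPKM in wild type and 56.3 and 51.9 in mutant libraries. Both mutants were below both wild types, with means of 74.7 ± 6.75 and 54.1 ± 3.10 FPKM (SD, n = 2), a ratio of 0.723 and a log2 difference of -0.46 (SE 0.09), and Rcor2 was not called. The ratio was close to that of Myt1l, at 0.722, but the Rcor2 libraries were spread further within each genotype. Rcor2 (ENSMUSG00000024968) lies on chromosome 19 from 7267325 to 7275225.

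Rcor1 was 12.9 and 14.5 FPKM in wild-type libraries, and 16.4 and 14.6 in mutant ones. The closest libraries of the 2 genotypes nearly touched, and the log2 difference was 0.17 (SE 0.11), not called. Rcor1 (ENSMUSG00000037896) lies on chromosome 12 from 111039351 to 111115901, and 53 of its exon bases are shared with Gm48632 on the same strand. Rcor3, the third CoREST gene, was 14.3 and 14.7 FPKM for wild type, against 15.5 and 16.6 for mutant libraries, also not called (log2 difference 0.14, SE 0.09). Rcor2 made up 72.0% and 73.1% of the summed Rcor level in the wild types and 63.8% and 62.4% in the mutants. The sum was 97.2 and 109 FPKM in wild type and 88.2 and 83.1 in mutant libraries. Groups that did not overlap, as for 5 of the 6 genes, were common: they were found for 51.6% of all tested genes.

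In order of level the wild-type cortex had Rcor2 and Myt1l at the top, where their libraries overlapped, then Myt1, Rcor1, Rest and St18, each clear of its neighbours. In the mutants Rcor2 and Myt1l again overlapped, Myt1 came just below them, and St18 had passed Rest. Rcor2 stood 18.9 and 19.2 times above Rest in the wild types, and 15.8 and 11.6 times above it in the mutants. For these genes the group values in the authors' deposited table equal the means of the same libraries, such as 22.6 and 43.5 FPKM for Myt1. Its ratios, 5.72 for St18, 1.92 for Myt1, 0.722 for Myt1l and 0.723 for Rcor2, are thus the same and no separate check.

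The genes with the most similar profile over the 4 libraries were found by the distance between log2 profiles centred on their own mean, a description over 4 libraries only. For St18 these included the POU factor gene Pou3f4 (5.98 and 4.85 FPKM in wild types, 23.8 and 28.5 in mutants, distance 0.19) and Neb, which codes for nebulin (distance 0.21). For Myt1 they were Kif20b, a kinesin of cytokinesis, Smc4, a condensin subunit, and the integrin gene Itga8, all within a distance of 0.05. Smc4 was 29.3 and 27.9 FPKM in wild types and 51.0 and 56.8 in mutants. For Myt1l they were Tbc1d8, Tbc1d5 and Gucy1a1, for Rest Ipp, Ice2 and Snapc1, for Rcor1 Myo10, Pdss2 and Ogg1, and for Rcor2 Snx18, Hspa12a and Igsf3.

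RefSeq promoter windows of 300 bases around annotated starts in GRCm38.p6 were at hand for 4 of the 6 genes, Myt1, Myt1l, Rcor1 and Rcor2, in 10 windows. They were searched on both strands for the Myt core AAGTT and its longer form AAAGTTT (which contains the core), for 2 parts of the RE1 element, TTCAGCACC and GGACAGC, and for the homeodomain core TAATTA. The core AAGTT was in 3 of 3 Myt1 windows, 2 of 5 Myt1l windows, the Rcor1 window and not in the Rcor2 window, against 39.3% of all 32851 windows. AAAGTTT was in 1 Myt1 window (4.74% of all windows), TAATTA in 1 Myt1l window (5.29%), GGACAGC in 1 Myt1l window and the Rcor2 window (6.56%), and TTCAGCACC in none of the 10 (0.371%). Below are the Myt1 window with AAAGTTT and the windows of Myt1l and Rcor2, the pair of genes with nearly equal ratios, that hold TAATTA and GGACAGC. Capitals mark the Myt core, the homeodomain core and the RE1 part GGACAGC, on either strand.
Myt1 (chr2:181796057-181796356, plus strand): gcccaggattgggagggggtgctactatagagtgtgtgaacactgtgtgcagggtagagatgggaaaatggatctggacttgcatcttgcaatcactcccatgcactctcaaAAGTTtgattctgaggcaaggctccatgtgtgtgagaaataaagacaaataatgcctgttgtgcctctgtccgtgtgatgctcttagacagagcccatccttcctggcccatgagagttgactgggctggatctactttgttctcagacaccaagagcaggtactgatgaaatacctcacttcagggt
Myt1l (chr12:29534972-29535271, plus strand): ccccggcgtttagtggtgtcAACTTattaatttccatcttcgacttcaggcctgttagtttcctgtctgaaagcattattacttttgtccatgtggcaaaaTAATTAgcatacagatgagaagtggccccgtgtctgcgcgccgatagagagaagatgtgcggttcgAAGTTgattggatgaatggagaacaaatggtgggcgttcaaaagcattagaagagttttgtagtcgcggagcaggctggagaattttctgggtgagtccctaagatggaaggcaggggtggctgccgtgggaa
Rcor2 (chr19:7267144-7267443, plus strand): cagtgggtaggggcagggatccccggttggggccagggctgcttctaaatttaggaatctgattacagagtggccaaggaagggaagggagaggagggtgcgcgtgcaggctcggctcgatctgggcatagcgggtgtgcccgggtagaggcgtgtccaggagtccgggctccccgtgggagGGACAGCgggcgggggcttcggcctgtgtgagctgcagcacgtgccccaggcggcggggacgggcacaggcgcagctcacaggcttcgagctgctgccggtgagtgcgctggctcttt
The Rcor windows were rich in CpG, with 31 in Rcor1 and 21 in Rcor2, and the 8 Myt1 and Myt1l windows had 1 to 13, where the median of all windows was 7. A match says only that the letters occur there, and the RNA values do not show which start was used.

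Rest RNA is a known target of miR-9, a microRNA of neural progenitors and neurons, and the other arm of the same hairpin is known to act on Rcor1. The mature sequences are shown with the seed, bases 2 to 8, in capitals.
mmu-miR-9-5p: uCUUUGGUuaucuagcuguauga
mmu-miR-9-3p: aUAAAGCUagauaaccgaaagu
The letters ACCAAAG, the reverse complement of the miR-9-5p seed, occurred once in the longest annotated 3' UTR of Rest, at base 3192 of 3448, in the context below, and did not occur in those of the other 5 genes.
Rest: tgaggcaaACCAAAGgtatattt
The same letters also occurred once in the longest annotated 3' UTR of Rcor3, at base 2315 of 2374. Of 21022 genes with a 3' UTR, 12.2% held ACCAAAG. The reverse complement of the miR-9-3p seed, AGCTTTA, was in none of the 6 UTRs and in 11.3% of all. The libraries do not measure mature microRNA. Mir9-3hg, a host gene of miR-9 and itself listed as a Rest target, was 34.5 and 36.2 FPKM in wild-type libraries, and 50.1 and 62.8 in mutant ones, log2 fold change 0.66, and was not called (limma adjusted p = 0.0631). It was picked out for its link to Rest and not by the rule for named genes.

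Other genes of the 2 pathways were read from lists set down from general knowledge, not from binding data. Rest recruits chromatin enzymes through its corepressors, and 0 of 23 partner genes were called by limma, with 6 at an unadjusted p under 0.05, all higher in the mutants. Of all tested genes 19.5% passed that unadjusted level, 10.2% higher and 9.23% lower. The total of 6 is thus near the background, but its split, 6 higher and 0 lower, was one-sided. In 16 of the 23 the fold change was above 0, against 50.1% of all tested genes, and in 7 below. The median log2 fold change of the 23 was 0.13, where that of all tested genes was 0.00. Hdac2, a deacetylase, was 211 and 220 FPKM for wild type, against 201 and 220 for mutant libraries. Kdm1a, the demethylase bound to Rcor proteins, was 140.1 and 139.6 FPKM in wild type and 141 and 129 in mutant libraries. Both overlapped between genotypes. The highest fold changes of the list, named after their values were seen, were Kdm5c (0.49), a histone demethylase gene, and the phosphatase genes Ctdsp2 (0.47) and Ctdsp1 (0.40). Each had both mutants above both wild types and was not called. Kdm5c lies on the X chromosome and was highest in mutant library 1, the female one by Xist and Ddx3y. It was 28.9 FPKM there, 23.7 in mutant library 2, and 18.1 and 19.0 in wild types. What part sex has in this was not tested.

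Rest is also set by splicing and protein turnover. Of 9 such genes 0 were called by limma, with 2 higher and 2 lower at an unadjusted p under 0.05, where 19.5% of all tested genes stood, and a median of -0.06. Ptbp2, a neuronal splicing regulator, was 218 and 226 FPKM in wild-type libraries, and 243 and 255 in mutant ones (limma adjusted p = 0.205). Srrm4, which splices Rest into a truncated neuronal form and was singled out for that role, was 41.3 and 45.8 FPKM for wild type, against 34.4 and 33.1 for mutant libraries (log2 fold change -0.36, limma adjusted p = 0.0955). The table gives whole genes, so the Rest splice forms were not measured.

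Neuronal genes listed as Rest targets were mostly a little lower in the mutants. Of 35 tested genes of 39 listed, 2 were called lower and 0 higher, beside 1.46% and 2.02% of all tested genes. In 25 of 35 the fold change was below 0, against 49.9% of all tested genes, and the median was -0.22. In 21 both mutants lay below both wild types, which held for 25.8% of all tested genes. At an unadjusted p under 0.05 there were 14 lower and 4 higher, beside 9.23% and 10.2% of all tested genes. Scn2a, a voltage-gated sodium channel gene, was 24.6 and 25.8 FPKM in wild type and 15.7 and 14.8 in mutant libraries (log2 fold change -0.70, SE 0.09, limma adjusted p = 0.0281). Chga, which codes for the granule protein chromogranin A, was 25.0 and 27.9 FPKM and then 17.1 and 17.4 (-0.60, SE 0.09, limma adjusted p = 0.0406). With any single library left out, 0 of the 35 were called.

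The list was not uniform. Scg2, a secretogranin gene, had the lowest fold change, at -0.73, and Pcsk1, a prohormone convertase gene, the highest, at 0.88. Neither was called, and both were named after their values were seen. Tubb3, the neuronal tubulin gene and the highest of the list, was 860 and 852 FPKM in wild-type libraries, and 817 and 782 in mutant ones (limma adjusted p = 0.391). Bdnf, Crh and Oprm1 were under 0.5 FPKM in every library and were not tested, and Nefh passed that level in 1 library only.

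**Figure D3:**
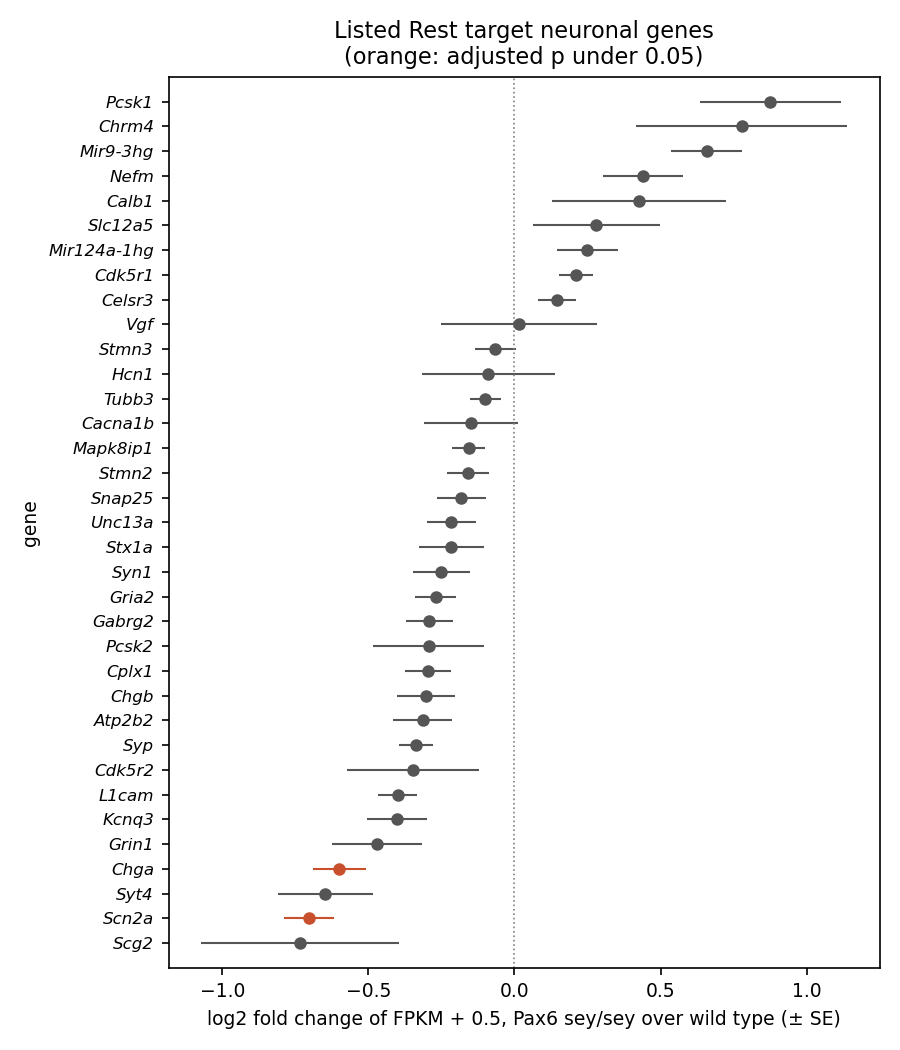
Log2 fold change of FPKM + 0.5, Pax6 sey/sey over wild type, with its standard error, of the 35 tested genes of the Rest target list, sorted by value. Called genes, Scn2a at -0.70 and Chga at -0.60, are in orange, and 25 of the 35 points lie below 0.

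Genes that Myt1 or Myt1l is described to repress were higher in part. Of 12 genes 3 were called higher and 0 lower, beside 2.02% and 1.46% of all tested genes, with a median log2 fold change of 0.35. At an unadjusted p under 0.05 there were 6, all higher, beside 10.2% of all tested genes. Sox2, the progenitor factor, went from 25.8 and 22.9 FPKM to 78.5 and 93.1 (log2 fold change 1.79, SE 0.11, limma adjusted p = 0.00746). Notch1 went from 9.53 and 10.5 FPKM to 21.6 and 17.4 (0.92, SE 0.14, limma adjusted p = 0.0400), and Id1, an inhibitor of basic helix-loop-helix factors, from 8.29 and 6.34 to 14.7 and 14.0 (0.94, SE 0.15, limma adjusted p = 0.0484). The Notch effectors Hes1 (4.72 and 6.58, then 6.75 and 4.26 FPKM) and Hes5 (10.7 and 8.86, then 12.7 and 13.7) were not called. Prox1 (1.45) and Id3 (0.99) had larger fold changes than Notch1 and were not called either; these 4 uncalled genes were named outside the rule. Notch1 shares exon bases with genes on the other strand, so its value is uncertain without strand. Sox2 lies within Sox2ot on the same strand, with 0 shared exon bases. Of the 12 genes 4 are also among the cell type markers used here, and 0 or 1 of the 12 were called with a library left out (1 without mutant library 1).

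**Figure D4:**
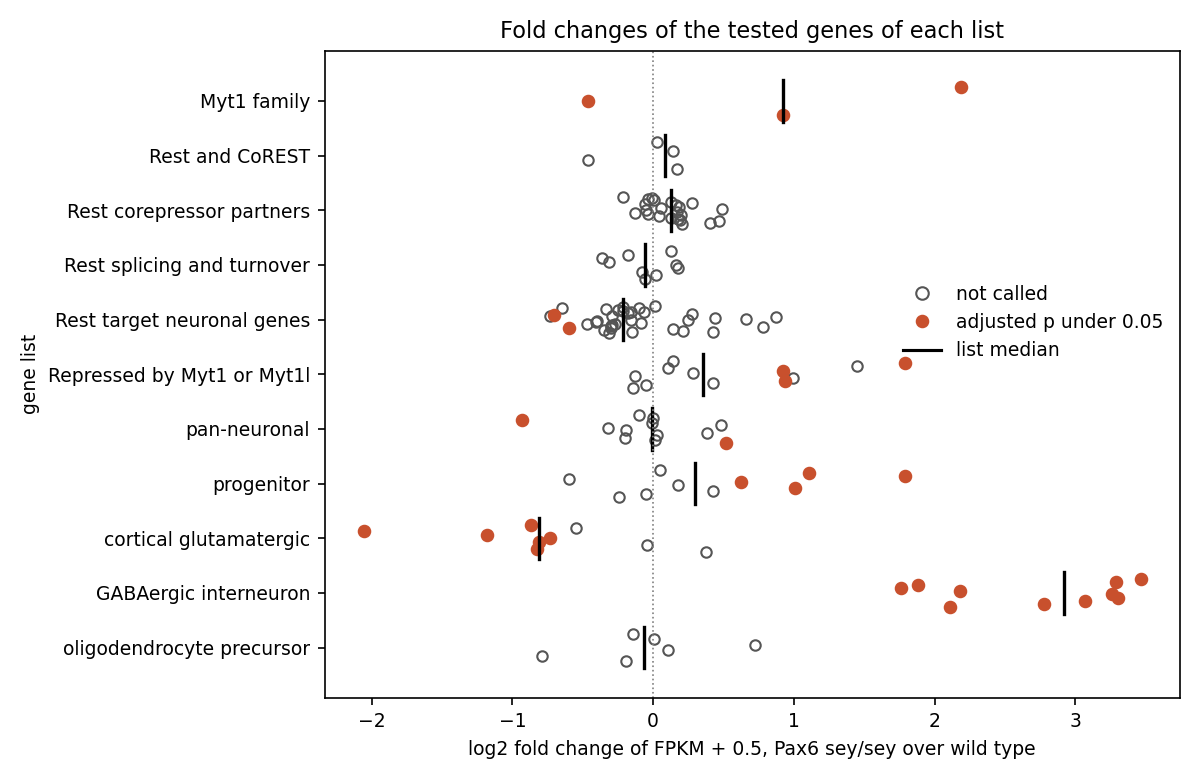
Log2 fold change of FPKM + 0.5, Pax6 sey/sey over wild type, of each tested gene of 11 lists, filled where called, with a black bar at each list median. Rest corepressor partners run from -0.22 to 0.49 (median 0.13), Rest target genes lie mostly below it (median -0.22), and the Myt family spans from -0.47 to 2.19.

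The mutant cortex also had other proportions of cell type markers, which moved beside these genes. Of all tested genes 2.02% were called higher and 1.46% lower, the shares to set beside each count of called markers. All 10 GABAergic interneuron markers rose, among them Sp9 (log2 fold change 3.47, limma adjusted p = 0.00390), Dlx1 (2.78, limma adjusted p = 0.00466) and Gad1 (2.18, limma adjusted p = 0.00466). Their summed level was 118 to 142 FPKM in wild types and 789 to 909 in mutants, and 7 of the 10 were called without mutant library 1, 3 without wild-type library 2, and 2 without wild-type library 1 or mutant library 2. Of 9 markers of cortical glutamatergic neurons 6 were called lower, among them Tbr1 (-0.87, limma adjusted p = 0.0152). The sum over all 9 went from 1407 to 1520 FPKM down to 922 to 978. Of 10 progenitor markers 4 were called higher, Sox2, Top2a, Pcna and Mki67. The other 6 were not called, and of these Slc1a3 (-0.60) and Fabp7 (-0.25), named after their values were seen, were below the wild types in both mutants, while the sum was 924 to 1062 FPKM in the wild types and 1044 to 1089 in the mutants. With a library left out, 0 or 1 of the glutamatergic and 0 or 1 of the progenitor genes were called. What part these proportions have in the levels of St18, Myt1, Myt1l, Rcor2 or the Rest target genes was not tested.

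Pan-neuronal markers stayed near their wild-type sum, at 5476 to 5546 FPKM in the wild types and 5203 to 5528 in the mutants, with 1 of 12 called higher (Celf4, 0.52) and 1 lower (Rbfox3, -0.93, limma adjusted p = 0.0281) and a median close to 0. Markers of the medial ganglionic eminence and its neurons, where St18 is also known, were called higher in 4 of 6 tested genes: Zic1, Lhx6, Sox6 and Sst. These calls rested on all 4 libraries. Of all tested genes 2.02% were called higher and 1.46% lower. The defining factor Nkx2-1 was under 0.5 FPKM in all 4 libraries, as were Lhx8, Gbx1 and Gbx2. Oligodendrocyte precursor genes, of interest for Myt1, had 0 of 6 called by limma and 1 lower at an unadjusted p under 0.05 (9.23% of all tested genes), with sums of 16.6 to 33.1 FPKM in the wild types and 23.4 to 31.4 in the mutants. Subplate markers had 1 of 7 called, Rbfox1, which was lower (-0.81, limma adjusted p = 0.0133). The fold change was below 0 in 4 of the 7 and above 0 in 3, beside 49.9% and 50.1% of all tested genes. Tmem163, named after its value was seen, was higher in both mutants (0.64) and not called.

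Markers of cells from outside the neural lineage were called in no list. Of all tested genes 3.48% were called. Limma called 0 of 5 tested meningeal, 0 of 7 vessel, 0 of 7 microglial and 0 of 5 red blood cell genes. At an unadjusted p under 0.05 there were 3, 3, 2 and 0, where 19.5% of all tested genes stood. The meningeal and vessel genes so counted were higher in the mutants (10.2% of all tested genes) and the microglial ones lower (9.23%). Both mutants lay above both wild types in 7 vessel, 4 meningeal, 2 microglial and 2 red blood cell genes (25.8% of all tested genes), and below in 3 microglial ones. The median log2 fold change was 1.79 for meningeal and 0.43 for vessel genes. Meningeal sums were 4.67 and 3.31 FPKM for wild type, against 29.1 and 6.98 for mutant libraries, with mutant library 1 the highest. Vessel sums were 63.2 to 66.9 FPKM in the wild types and 76.1 to 93.1 in the mutants, microglial sums 17.2 to 23.6 FPKM and red blood cell sums 1558 to 1814 FPKM over all libraries. Without mutant library 1 the log2 differences of St18, Myt1, Myt1l and Rcor2 were 2.18, 1.03, -0.50 and -0.52, as large as or close to those with it.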

How the data were processed

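RNA of dissected cortex from 4 samples, 2 wild type and 2 Pax6 sey/sey at embryonic day 16.5, was measured by sequencing. The authors deposited 1 table with an FPKM value per gene and library, per the file headers, beside a group FPKM, a fold (ratio of mutant to wild type) and a p-value, also deposited by the authors, whose test is not stated. Tools named without a role, per the submitters' processing notes, are Cufflinks 2.2.1, TopHat2 2.0.9 and edgeR, with builds mm10 and GRCm38.p4. RNA selection, strand use and further scaling between libraries are not given in the sources used here. Symbols were taken by Ensembl identifier (22599 of 22770 matched), since 25 names had become dates, and coordinates are those of GENCODE M21 on GRCm38, counted from 1. A Cufflinks locus is shared with another gene by 9357 of the genes.

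The 15399 genes that reached 0.5 FPKM in 2 libraries entered a limma fit (version 3.58.1, R 4.3.3) of genotype on log2(FPKM + 0.5) (mean-variance trend, Benjamini-Hochberg over all tested genes, threshold 0.05). The smallest p an exact two-sided permutation of 2 against 2 libraries allows is 0.333, so none is given. The fit was tested on simulated data. Depth per sample is not given by FPKM, and fragment numbers are estimates from the lowest values and exon lengths. The 6 genes, the gene lists and the naming rule were chosen with earlier results of these data known. Named were Pax6, the 6 genes and Rcor3, up to 4 called genes with the smallest p of each list or, with fewer than 2 called, its 2 highest genes besides, and the 3 genes closest in profile to each of the 6. Some genes that this rule takes are not reported here. Further genes were named only where the text says so or as members of a short count. Alternatives covered pseudocount, filter, trend, scaling, a replicate block and leaving out each library.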

Additional observations from a re-analysis of the deposited data

How the results depend on the processing

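The direction of the differences of St18, Myt1, Myt1l, Rcor1 and Rcor2 was the same under all 13 alternatives, and Rest, never called, was -0.02 with quantile normalisation. The count of called genes, 536, was 61 with no filter on low values, 54 without the mean-variance trend, and 7 to 59 with 1 library left out, which leaves 1 library in a group, assumed to vary like the others. The count was 7 and 13 without wild types 1 and 2, and 59 and 27 without mutants 1 and 2. Of the 6 genes, 3 were called, 0 with no filter, 1 without the trend and 0 with any 1 library left out. Of the Rest target genes 2 were called lower, 0 with no filter, 0 without the trend and 0 with any 1 library left out. Of the genes described as repressed by Myt1 or Myt1l 3 were called higher, 1 with no filter, 0 without the trend, 1 with a replicate block and 0 to 1 with 1 library left out. Among Rest corepressor partners 1 (Ctdsp2, named after its value was seen) was called higher with a filter at 1 FPKM and 1 (again Ctdsp2) with totals taken without mitochondrial genes. The log2 difference of St18 was 2.45 with a pseudocount of 0.1 and 1.94 with a pseudocount of 1. The log2 differences ranged from 0.82 to 1.03 for Myt1, -0.50 to -0.44 for Myt1l, 2.07 to 2.30 for St18, -0.12 to 0.18 for Rest, 0.09 to 0.25 for Rcor1 and -0.55 to -0.37 for Rcor2 with 1 library left out. The labels do not say whether replicate numbers pair the samples. Same-numbered libraries deviated together with a correlation of 0.05 across genes. This rests on 1 difference within each genotype and cannot show whether they were paired. With the replicate number as a block 374 genes and 3 of the 6 were called. The cause was not tested. The median log2 fold change of all genes was -0.0133 with quantile normalisation and 0.000619 as reported.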

Other observations

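The nearest tested protein-coding genes on either side of each of the 6 genes were read from the same fit. Limma called 0 of these 12 neighbours, beside 3.48% of all tested genes. At an unadjusted p under 0.05 there were 2, beside 19.5% of all tested genes, and their log2 fold changes lay between -0.25 and 0.23. The tested protein-coding neighbours of St18 were far from it. Genes that were untested or not protein-coding were left out, so the interval need not be empty. Rb1cc1, an autophagy gene 210583 bases away, was 35.1 and 26.8 FPKM in wild type and 31.5 and 35.6 in mutant libraries. Pcmtd1, 227980 bases away on the other side, was 40.2 and 39.7 and then 38.2 and 42.2. Beside Myt1, Pcmtd2 was 35.2 and 36.1 FPKM in wild-type libraries, and 38.2 and 45.6 in mutant ones, and Oprl1, the nociceptin receptor gene, was 18.4 and 19.1 and then 15.6 and 15.8. Mark2, which lies 171 bases from Rcor2, was 27.9 and 29.5 FPKM for wild type, against 34.2 and 31.3 for mutant libraries, opposite in direction to Rcor2 and not called (limma adjusted p = 0.301).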
